A study of Homo sapiens with 6 samples.

Results

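The lysosomal genes are the 122 rows, of 38170 in the deposited gene table, whose pathway annotation holds the KEGG term Lysosome. They were read in A549, an established human lung carcinoma cell line. Of 6 total-RNA libraries, 3 came from A549 lines that overexpress the long non-coding RNA LOC401312 from a piggyBac transposon and 3 from A549 transfected with the empty vector. The genotype label of LOC401312 replicate 2 names LOC401313 and that of replicate 3 names LOC401314, against their titles, their library names and the series design, and the groups below follow the titles. The sources used here do not say whether a line was a clone or a pool, or whether replicates were separate cultures. The p-values therefore rest on the spread between the libraries at hand, which may be technical.

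The lysosome is the acidic compartment in which cells break down proteins, glycans, lipids and nucleic acids. Most of its soluble hydrolases are tagged with mannose 6-phosphate in the Golgi and carried there by receptors in clathrin-coated vesicles, while a vacuolar ATPase pumps in protons and membrane proteins export the products. Many lysosomal genes carry the CLEAR element in their promoters, a palindrome bound by TFEB and related factors of the MiT/TFE family.

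Each library held between 60971105 and 73994619 counts. The STEAP1B entry, which overlaps LOC401312, was nearly silent with the vector (9, 11 and 23 counts) and high with LOC401312 (94628, 92527 and 90297 counts). Of the 10 epithelial and A549 markers examined, KRT8 and KRT18 were abundant in every library and EPCAM had between 104 and 201 counts. The 10 summed to between 20100 and 21042 CPM with the vector and between 18948 and 19630 with LOC401312, without overlap. Of them AKR1B10, AKR1C1, AKR1C2 and ALDH1A1 were lower with LOC401312 and CDH1 and KRT19 higher by the edgeR test used below. The libraries also differed in transcripts of other cell types, whose part in the results below was not tested. The 12 placental markers summed to 2.31 CPM (counts scaled to library size) in LOC401312 replicate 1, 137 in replicate 2 and 105 in replicate 3, against 1.38 to 2.53 in the vector libraries. The 10 urothelial-type markers summed to between 25.5 and 30.3 CPM with the vector and between 19.4 and 21.7 with LOC401312, and among them the keratin KRT13 had 338, 253 and 286 counts against 5, 0 and 0. The 10 fibroblast and endothelial markers summed to between 40.6 and 71.7 CPM in the vector libraries and between 25.0 and 28.8 in the LOC401312 libraries.

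Of the 122 genes, 119 had enough counts to be tested and 3 did not. The aspartic protease CTSE had 34, 3 and 3 counts in the vector libraries and 0 in the 3 LOC401312 libraries. The leukocyte cathepsin CTSW had 38, 4 and 0 counts against 3, 4 and 7, and the nuclease DNASE2B had 0 in all 6. CTSE and CTSW were both highest in vector replicate 1. In bulk RNA, a change in the number of cells of one kind and a change in RNA per cell cannot be told apart.

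The lysosomal genes that changed were mostly higher with LOC401312. By edgeR's quasi-likelihood test with Benjamini-Hochberg adjustment over all 19620 tested features at 0.05, 19 were higher, 3 were lower and 97 did not pass, or 16.0% higher and 2.52% lower. Over all tested features 8.72% passed, 4.13% higher and 4.58% lower. Abundant genes pass more often, and the lysosomal genes are abundant, with a median of 6.93 FPKM (fragments scaled to gene length and library size) against 0.102 over the whole table. Among features with a mean of at least 5 FPKM, fitted alone, 18 of 76 lysosomal genes (23.7%) were higher and 3 (3.95%) lower, against 19.0% of all such features passing, 8.93% higher and 10.1% lower.

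Most of the shifts were small. The median log2 change, LOC401312 over vector, was 0.0489 over the 119 genes and -0.000665 over all tested features, with 76 genes above 0 and 43 below. In 41 genes (34.5%) all 3 LOC401312 libraries exceeded all 3 vector libraries, in 9 (7.56%) all were below, and in 69 the groups overlapped. Over all tested features these shares were 14.0% above and 13.9% below. After centring each gene on its mean log2 CPM, the median over lysosomal genes was -0.0423, -0.0200 and -0.0435 in vector replicates 1, 2 and 3 and 0.0360, 0.0342 and 0.0317 in LOC401312 replicates 1, 2 and 3. All 3 medians were below 0 with the vector and above 0 with LOC401312. Together the 122 genes took 1.41% ± 0.0153 of counts in the vector libraries and 1.47% ± 0.0114 in the LOC401312 libraries (SD, n = 3 each). These are shares of total counts, a scale on which the median log2 change of all tested features was 0.0237.

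**Figure D1:**
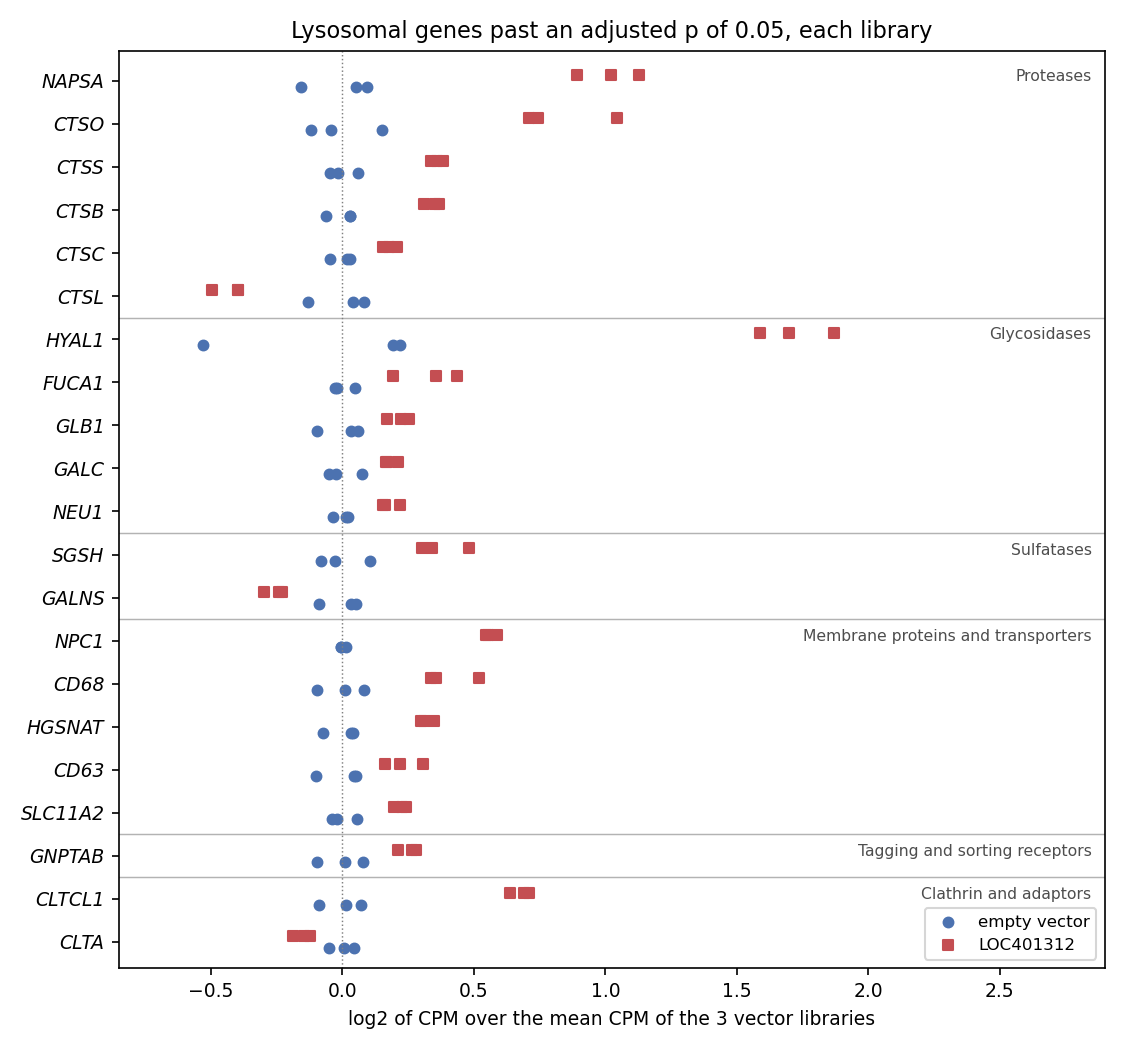
The 21 lysosomal genes past an adjusted p of 0.05 that are described in the text, grouped by role. Each point is 1 library, as the log2 of its CPM over the mean of the 3 vector libraries (circles, empty vector; squares, LOC401312). In these 21 genes no square falls among the circles, and HYAL1 and NAPSA show the widest gaps and CTSL, GALNS and CLTA the gaps to the left.

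The hydrolases and their activators made up 57 of the 122 genes, of which 54 were tested, 12 were higher (22.2%) and 2 lower (3.7%). These calls lay in 3 of their 4 classes. The counts by class below are read beside 4.13% higher and 4.58% lower over all tested features. For groups without overlap those shares were 14.0% above and 13.9% below. Scarce features are part of them. Among features with a mean of at least 5 FPKM, fitted alone, 8.93% were higher and 10.1% lower. The median levels of the classes ran from 4 to 11.4 FPKM.

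Among the 17 cathepsins and other proteases, 15 were tested, 5 were higher (33.3%) and 1 lower (6.67%), with a median log2 change of 0.09. CTSB, an abundant cysteine protease (160.5 FPKM), had 1177, 1255 and 1255 CPM in the vector libraries and 1584, 1567 and 1525 in the LOC401312 libraries. The groups were well apart, and CTSB rose 1.27-fold (log2 0.34, SE 0.036, edgeR adjusted p = 0.000377). CTSL, an endopeptidase of the same family and the most abundant lysosomal transcript per length (407 FPKM), went the other way. It had 947.5, 1068 and 1101 CPM against 789.3, 787.9 and 736.9, all LOC401312 libraries below all vector ones, and fell by 0.43 on the log2 scale (SE 0.055, edgeR adjusted p = 0.00123). CTSL lies at chromosome 9, 87726109 to 87731393 (GRCh38, plus strand), and has pseudogene copies, so its counts carry that uncertainty.

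CTSD, the abundant aspartic protease (324 FPKM), did not pass (log2 -0.10, adjusted p = 0.2005), and its groups overlapped. With CTSB higher and CTSL lower, the summed FPKM of the class was 1058 ± 20.2 in the vector libraries and 1055 ± 32.9 in the LOC401312 libraries (SD, n = 3 each). On the FPKM scale features with a mean of at least 5 FPKM shifted up by 0.109 (log2) with LOC401312, so on that scale an equal sum lies below the general shift. As a share of total counts the class showed no fall, at 0.43% ± 0.016 with the vector and 0.44% ± 0.00546 with LOC401312.

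CTSS, a cysteine protease best known from antigen-presenting cells, had 47.6, 50.2 and 46.6 CPM against 61.9, 60.9 and 62.7, a log2 change of 0.36 (SE 0.047, adjusted p = 0.0013). CTSC, the dipeptidyl peptidase that activates granule serine proteases, had 163.4, 155.3 and 162.3 CPM against 184.9, 181.3 and 178.6 (log2 0.18, adjusted p = 0.0198). The other risen proteases were scarce. The cathepsin CTSO had 3.82, 3.35 and 3.17 CPM against 5.64, 5.77 and 7.10, a log2 change of 0.84 (SE 0.15, adjusted p = 0.00746). NAPSA, the aspartic protease of alveolar type II cells that processes surfactant protein B, had 0.97, 1.12 and 1.15 CPM against 2.20, 2.01 and 2.37, or 2.03-fold (adjusted p = 0.0183). Its span overlaps NR1H2 on the opposite strand, which had a mean of 6385 counts.

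The macrophage and leukocyte markers, whose cells are rich in CTSS and in CD68 (below), summed to between 18.3 and 23.8 CPM in the vector libraries and between 20 and 24.5 in the LOC401312 libraries. TYROBP was at 0 in all 6, and PTPRC had 256, 4 and 0 counts against 0, 8 and 0. The 3 markers with enough counts to test were all on the higher side, with overlapping groups, and none passed: ITGAM at a log2 of 0.39 (adjusted p = 0.221), ITGAX at 0.32 (0.411) and CD14 at 0.08 (0.714). Their part in the rises of CTSS and CD68 was not tested. LAPTM5, a lysosomal membrane protein of blood cells, had 176 counts in vector replicate 1, the library with the PTPRC counts, 39 and 52 in the other vector libraries and 177, 182 and 176 with LOC401312 (log2 1.003, adjusted p = 0.18).

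Among the 17 glycosidases, 5 were higher (29.4%) and none was lower, with a median of 0.08. In 7 (41.2%) the LOC401312 libraries exceeded the vector ones without overlap. HYAL1, which cleaves hyaluronan, had the largest log2 change of all tested lysosomal genes. Its counts were 115, 56 and 97 in the vector libraries and 287, 300 and 330 in the LOC401312 libraries, or 1.55, 0.937 and 1.58 CPM against 4.069, 4.397 and 4.944. Vector replicate 2 was lowest, and the 3 LOC401312 libraries were all at least 4 CPM. HYAL1 rose 3.29-fold (log2 1.72, SE 0.23, adjusted p = 0.00149) from a low level of 0.343 ± 0.0987 FPKM (SD, n = 3).

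The other 4 risen glycosidases changed by a log2 of 0.18 to 0.33. GLB1, the beta-galactosidase read out in senescence staining, had 89.3, 99.5 and 97.7 CPM against 113.9, 111.5 and 107.4 (log2 0.22, adjusted p = 0.0268). NEU1, the lysosomal sialidase, had 51.2, 53.0 and 53.2 CPM against 61.1, 58.7 and 58.4 (log2 0.18, adjusted p = 0.0332). Both enzymes sit in a complex with the protective protein CTSA, which had a log2 change of 0.10 that did not pass (adjusted p = 0.169). The fucosidase FUCA1 had 15.6, 16.4 and 15.7 CPM against 18.2, 20.4 and 21.5 (log2 0.33, adjusted p = 0.0386), and GALC, which removes galactose from galactosylceramide, 55.9, 51.3 and 52.2 against 61.6, 59.8 and 59.6 (log2 0.18, adjusted p = 0.0443).

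The 8 genes of the sulfatases, their activator SUMF1 included, split, with 2 higher (25%), 1 lower (12.5%) and a median of -0.02. SGSH, the heparan N-sulfatase, had 19.4, 18.7 and 21.3 CPM against 24.4, 27.7 and 25.1 (log2 0.38, SE 0.081, adjusted p = 0.0171), and it overlaps SLC26A11 on the opposite strand (mean 1146 counts). GALNS, which desulfates keratan sulfate and chondroitin 6-sulfate, had 62.8, 68.2 and 69.2 CPM against 56.4, 54.3 and 56.9 and fell by 0.26 on the log2 scale (SE 0.051, adjusted p = 0.0118). TRAPPC2L overlaps it on the opposite strand (mean 2402 counts). IDS, the iduronate sulfatase and a further abundant member, was at -0.01 (16.2 FPKM, adjusted p = 0.965), and SUMF1, which converts the catalytic cysteine of all sulfatases, was at -0.22 with no overlap but did not pass (adjusted p = 0.082).

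Among further enzymes that degrade heparan sulfate, chosen here after their values were seen, the glycosidase NAGLU had 54.0, 60.3 and 61.0 CPM against 68.5, 64.7 and 63.1, without overlap and without passing (log2 0.16, adjusted p = 0.12). The iduronidase IDUA and the glucuronidase GUSB, which act on the uronic acids of the same chain, were at 0.07 (adjusted p = 0.856) and 0.10 (adjusted p = 0.446).

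Of the 15 lipid, nucleic acid and phosphate hydrolases with their activators, 14 were tested and none passed in either direction, with a median of 0.01. With 8.72% of all tested features passing, a count of 0 in 14 is near that share. It is further from the 19.0% passing among features with a mean of at least 5 FPKM. PSAP, the precursor of the saposins and second in level (345 FPKM), had 1243, 1370 and 1328 CPM against 1365, 1286 and 1290, a log2 change of 0.00 (SE 0.043, adjusted p = 0.998). NPC2, the soluble cholesterol carrier, had 145.4, 160.8 and 157.4 CPM against 177.0, 170.3 and 156.0 (log2 0.12, adjusted p = 0.252), and the thioesterase PPT1 was at -0.10 (adjusted p = 0.252). The smallest p in the class belonged to ACP5, the tartrate-resistant phosphatase, with 24, 18 and 13 counts against 55, 82 and 26 (log2 1.496, SE 0.49, adjusted p = 0.0921), and to the sphingomyelinase SMPD1 (log2 0.22, SE 0.075, adjusted p = 0.107). The groups did not overlap in either.

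**Figure D2:**
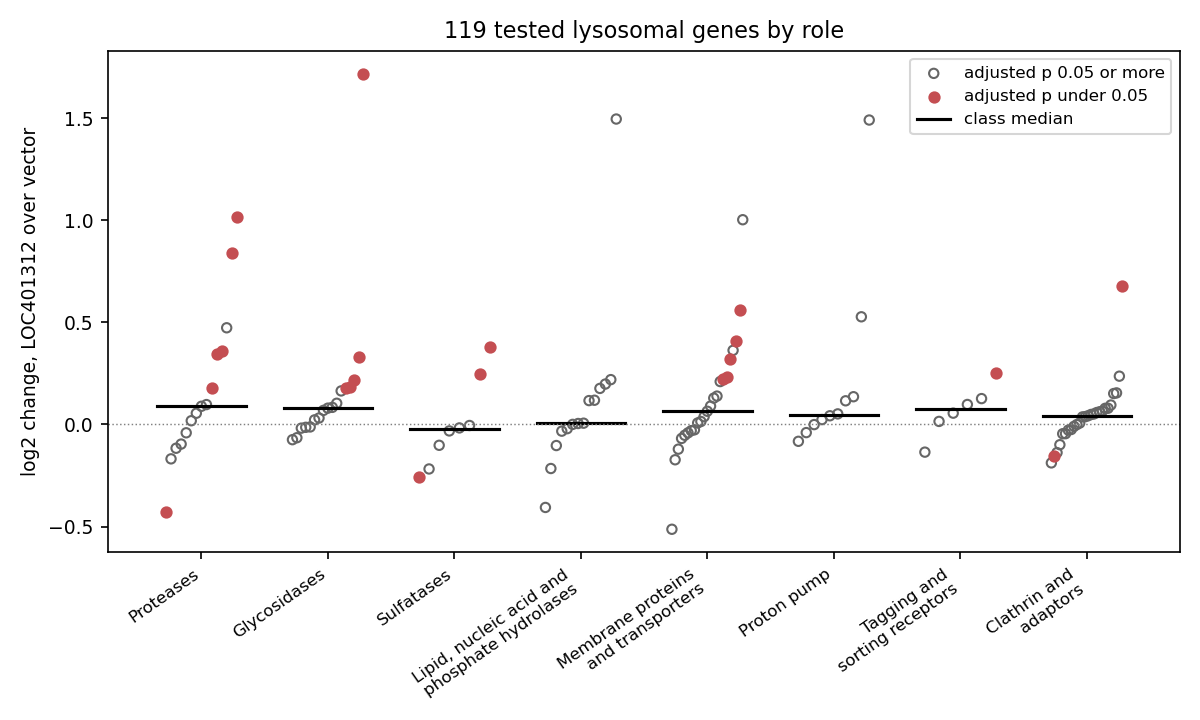
Log2 change of the 119 tested lysosomal genes by role, LOC401312 over vector. Filled points passed an adjusted p of 0.05 and bars are class medians. The filled points above 0 lie mainly among the proteases, glycosidases and membrane proteins, and the lipid hydrolases and the proton pump hold none. With 8.72% of all tested features passing, 0 of 14 and 0 of 10 are near that share. They are further from the 19.0% passing among features with a mean of at least 5 FPKM.

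Of the 23 membrane proteins and transporters, 5 were higher (21.7%) and none lower (median 0.06). In 11 (47.8%) the LOC401312 libraries all lay above the vector libraries. NPC1, which takes cholesterol from NPC2 and moves it across the lysosomal membrane, had the smallest p of all lysosomal genes. It had 170.0, 172.2 and 170.2 CPM in the vector libraries and 249.5, 250.6 and 256.7 in the LOC401312 libraries, or 14.1 ± 0.522 against 22.7 ± 0.265 FPKM (SD, n = 3 each). Libraries of a group nearly coincided and the groups were far apart, a rise of 1.48-fold (log2 0.56, SE 0.036, edgeR adjusted p = 2.17e-05). NPC1 lies at chromosome 18, 23506184 to 23576947 (GRCh38, minus strand), and overlaps RMC1 on the other strand (mean 1288 counts).

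HGSNAT, which acetylates heparan sulfate across the membrane, had 64.8, 59.8 and 64.5 CPM against 80.2, 78.1 and 77.6 (log2 0.32, SE 0.047, adjusted p = 0.00281). CD68, a heavily glycosylated LAMP-family protein used as a macrophage marker, had 33.4, 35.1 and 31.1 CPM against 47.6, 42.0 and 42.5 (log2 0.41, SE 0.068, adjusted p = 0.00525). An unnamed entry on its own strand (mean 2287 counts) overlaps it, so its reads may be shared. The iron transporter SLC11A2 had 54.3, 53.5 and 57.2 CPM against 65.1, 63.0 and 64.3 (log2 0.22, adjusted p = 0.0143). The tetraspanin CD63, found in late endosomes and exosomes, had 317.4, 352.8 and 350.6 CPM against 421.2, 396.0 and 380.9 (log2 0.23, adjusted p = 0.0226).

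The main structural proteins of the lysosomal membrane did not pass. LAMP1 was at 0.06 (26.7 FPKM, adjusted p = 0.368) and LAMP2 at 0.13 (20.02 FPKM, adjusted p = 0.113), each without overlap. LAPTM4A, the class's most abundant transcript (134 FPKM), was at -0.12 (adjusted p = 0.103), and LAPTM4B at -0.03 (adjusted p = 0.749).

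No proton pump gene passed: 10 were tested and their median was 0.05. With 8.72% of all features passing, a count of 0 in 10 is near that share. It is further from the 19.0% passing among features with a mean of at least 5 FPKM. ATP6V0C, the proteolipid of the membrane ring and the most abundant (85.5 FPKM), had 137.6, 151.5 and 150.9 CPM against 137.5, 144.9 and 145.6 (log2 -0.04, adjusted p = 0.71). ATP6AP1, an accessory subunit, was at 0.02 (adjusted p = 0.842), and TCIRG1, an a-subunit isoform, at 0.00 (adjusted p = 0.996). The smallest p-values were those of the isoform ATP6V0A2 (log2 0.14, adjusted p = 0.177) and of ATP6V1H (log2 0.12, adjusted p = 0.216), a subunit of the cytosolic V1 part. Of 14 further proton pump subunits outside the KEGG term, mostly of the V1 part, none was higher and 2 were lower (14.3%, against 4.58% of all features). Their median was -0.05. The lower ones were ATP6V1E2 on chromosome 2 (log2 -0.57, adjusted p = 0.00715) and ATP6V1G1 on chromosome 9 (log2 -0.16, adjusted p = 0.0422). With the median of each chromosome removed from each library, neither passed (adjusted p = 0.0841 and 0.347).

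Of the 6 genes for the mannose 6-phosphate tag and sorting receptors, 1 was higher (16.7%) and none lower. GNPTAB, the catalytic precursor of the phosphotransferase that adds the tag, had 47.9, 42.5 and 45.7 CPM against 55.1, 52.5 and 54.4 (log2 0.25, adjusted p = 0.0188). Its partner subunit GNPTG was at -0.14 (adjusted p = 0.305). The cation-dependent receptor M6PR had 224.8, 230.6 and 217.9 CPM against 247.4, 247.7 and 240.0, without overlap and without passing (log2 0.13, adjusted p = 0.0743), and the cation-independent receptor IGF2R was at 0.01 (adjusted p = 0.888).

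Of the 26 clathrin and adaptor genes, 1 was higher (3.85%) and 1 lower (3.85%), near the shares over all tested features. Both lie below the 8.93% higher and 10.1% lower among features with a mean of at least 5 FPKM. CLTCL1, the second clathrin heavy chain, had 10.56, 11.01 and 9.853 CPM against 17.1, 16.3 and 16.9 and rose 1.6-fold (log2 0.68, SE 0.084, adjusted p = 0.000958). The ubiquitous heavy chain CLTC was far more abundant (60.1 against 1.15 FPKM) and was at 0.05 (adjusted p = 0.393). The light chain CLTA had 236.1, 245.3 and 252.3 CPM against 221.1, 224.3 and 214.5, a fall of 0.15 on the log2 scale (SE 0.040, adjusted p = 0.0431). The small subunit AP1S1, the most abundant adaptor (40.3 FPKM), was at -0.10 (adjusted p = 0.347), and none of the other adaptor genes of the AP-1, AP-3, AP-4 and GGA families passed.

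**Figure D3:**
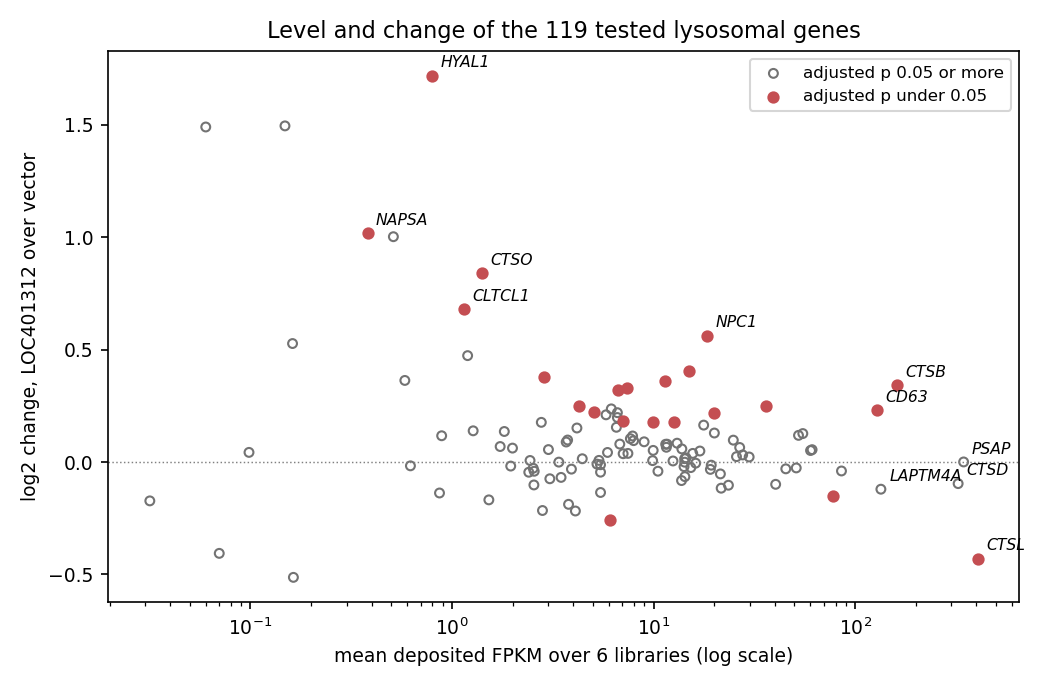
Mean deposited FPKM over 6 libraries (log axis) against log2 change for the 119 tested lysosomal genes. CTSL, at the right, lies below 0, PSAP and CTSD lie near 0, and HYAL1 and NAPSA, the highest of the genes that passed, are at under 1 FPKM, as is ACP5, which did not pass.

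The calls did not rest equally on all libraries. Leaving out vector replicate 1 gave 19 higher, and vector replicate 2 or 3 gave 12. Leaving out LOC401312 replicate 1 or 3 gave 11 higher, and replicate 2 gave 9, while the number lower ranged from 1 to 4. The share of all features that passed also moved, at 9.87%, 5.47% and 4.43% without vector replicates 1, 2 and 3. Without LOC401312 replicates 1, 2 and 3 it was 4.99%, 4.08% and 4.67%. Of lysosomal genes, 19.3% passed without vector replicate 1, 8.4% without LOC401312 replicate 2 and 10.9% without each of the others. Of the 22 genes, 10 passed in all 6 such fits, among them CTSB, CTSL, CTSS, CTSO, HYAL1, NPC1, HGSNAT, CD68 and CLTCL1. The other 12 lost their call in at least 1 fit, with adjusted p-values reaching 0.173 for CLTA, and NEU1 lost it in all 6. Without LOC401312 replicates 2 and 3, the libraries with placental transcripts and differing genotype labels, most calls were lost. This held among lysosomal genes and over all features alike. The median log2 change without them was 0.0499 over lysosomal genes and -0.00987 over all features. That fit sets 1 LOC401312 library against 3, takes the spread from the vector libraries alone and assumes that the lone library varies like them.

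Chromosomes 2, 9 and 12 had median log2 changes away from 0, of -0.233, -0.0863 and 0.117 over features of at least 4 CPM. In all 7 lysosomal genes on chromosome 12 the LOC401312 libraries exceeded the vector ones without overlap, and 4 of them, GNPTAB, SLC11A2 and CD63 included, were among those called higher. Over all tested chromosome 12 features 32.5% lay above without overlap and 11.1% were called higher. Off the 3 chromosomes, 15 of 105 tested genes were higher (14.3%) and 1 lower (0.952%), with a median of 0.0489, against 4.01% and 2.87% of all features there. With chromosome medians removed, 14 genes (11.8%) were higher and 2 (1.68%) lower, against 3.48% and 2.62% of all features. The calls of these genes on chromosome 12 ended, at a log2 of 0.14 for GNPTAB (adjusted p = 0.188), 0.11 for SLC11A2 (0.222) and 0.11 for CD63 (0.253). GALC (0.18, adjusted p = 0.0517) and CLTA on chromosome 9 (-0.07, adjusted p = 0.37) also lost theirs, and CTSL kept its call at -0.34 (adjusted p = 0.00344).

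On the deposited FPKM values, limma on log2(FPKM + 0.1) called 43 of 106 lysosomal genes (40.6%) higher and 1 (0.943%), CTSL, lower, against 17.9% and 3.15% of all features. That scale carries the upward shift given above. Neither GALNS (log2 -0.13, adjusted p = 0.118) nor CLTA (log2 -0.03, adjusted p = 0.63) passed there. With each library's median removed, 19 were higher (17.9%) and 3 lower (2.83%). Of all 12006 features in that fit, 710 were higher and 750 lower, 12.2% passing together.

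Lists of genes that control or use the lysosome were read beside the 4.13% of all features that were higher and the 4.58% that were lower. Of 22 genes of the MiT/TFE factors and lysosomal nutrient sensing, 2 were higher (9.09%) and none lower (median 0.05). TFEB, the factor best known for lysosomal gene control, had 5.64, 7.46 and 7.84 CPM against 6.41, 7.89 and 7.46, with overlap (log2 0.06, adjusted p = 0.881). TFE3 was at 0.04 (adjusted p = 0.676) and MITF at 0.03 (adjusted p = 0.922). The genes that rose were TSC2, a brake on mTORC1 (log2 0.18, adjusted p = 0.0347), and FNIP1, a partner of folliculin (log2 0.31, adjusted p = 0.0361).

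Of 38 tested macroautophagy genes, 1 was higher (2.63%) and 2 were lower (5.26%). GABARAPL1, which conjugates to autophagosome membranes, rose by 0.23 (adjusted p = 0.0163) and lies on chromosome 12. With chromosome medians removed it was at 0.12 (adjusted p = 0.206). ATG16L1, which guides that conjugation, had 54.1, 54.6 and 52.8 CPM against 39.1, 39.5 and 36.8 and fell by 0.49 on the log2 scale (adjusted p = 0.000297). The lipid scramblase ATG9A fell by 0.18 (adjusted p = 0.0417), and both lie on chromosome 2. In that fit ATG16L1 was at -0.26 (adjusted p = 0.0125) and ATG9A at 0.05 (adjusted p = 0.66). Of 27 genes of endosome to lysosome fusion, 1 was higher (3.70%), the adaptor PLEKHM1 (log2 0.26, adjusted p = 0.0102), and 3 lower (11.1%). Among the lower was the tethering subunit TGFBRAP1 on chromosome 2 (log2 -0.32, adjusted p = 0.00779), which with chromosome medians removed was at -0.09 (adjusted p = 0.405). Of 33 tested further lysosomal proteins, 4 were higher (12.1%) and 2 lower (6.06%). They included LYST, mutated in Chediak-Higashi syndrome (log2 0.42, adjusted p = 0.0125), and the phospholipase B-like proteins PLBD2 (log2 0.18, adjusted p = 0.0167) and PLBD1 (log2 -0.73, adjusted p = 0.0124), both on chromosome 12. With chromosome medians removed PLBD2 was at 0.07 (adjusted p = 0.367) and PLBD1 at -0.85 (adjusted p = 0.00809).

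The promoters were read because of the CLEAR element. RefSeq windows from 250 bases before to 50 bases after a start site (GRCh38.p14) were at hand for 92 of the 122 genes, 13 of them called higher and 3 lower. The 8-letter core TCACGTGA, which is its own reverse complement and holds the E-box CACGTG, was found in a window of 11 genes (12%) against 1.18% of 27305 genes with a window. The E-box, with or without the rest of the core, was in 24 (26.1%) against 8.77%, and the core with a G before it and a C after it, the full element, in 5 (5.43%) against 0.421%. The stretches below show the core in capitals, 5′ to 3′ on the strand of the gene, first in GALNS, which fell, and then in genes that did not pass: the glucosidase GAA, the calcium channel MCOLN1, LAMP1, CTSA and the pump subunit ATP6V0D1.
GALNS, chr16:88857089-88857148, minus strand: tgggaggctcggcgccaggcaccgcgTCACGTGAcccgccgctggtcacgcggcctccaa
GAA, chr17:80101523-80101580, plus strand: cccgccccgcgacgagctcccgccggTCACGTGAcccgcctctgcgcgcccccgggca
MCOLN1, chr19:7522556-7522615, plus strand: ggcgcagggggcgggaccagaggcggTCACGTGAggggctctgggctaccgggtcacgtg
LAMP1, chr13:113297184-113297238, plus strand: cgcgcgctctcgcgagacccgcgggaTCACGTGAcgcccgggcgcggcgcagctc
CTSA, chr20:45891283-45891334, plus strand: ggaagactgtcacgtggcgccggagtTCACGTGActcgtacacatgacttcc
ATP6V0D1, chr16:67481184-67481243, minus strand: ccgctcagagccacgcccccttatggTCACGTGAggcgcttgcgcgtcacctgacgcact

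The printed core stood 167 bases before the RefSeq start in GALNS. In GAA, MCOLN1, LAMP1, CTSA and ATP6V0D1 the distances were 24, 34, 21, 18 and 52 bases. GAA had a further core 69 bases before its start, MCOLN1 one 7 bases before and LAMP1 one across the start. For MCOLN1 the core nearer the start, not the printed one, is the full element. The CTSA stretch lies inside the deposited span of that gene (45890144 to 45898820), before a RefSeq start within it. None of the 13 genes called higher had the core in a window, 1 of the 3 called lower had it, and 10 of the 74 that did not pass had it. A count of 0 in 13 is near the share among all lysosomal genes with a window, 11 of 92. The other genes called higher, CTSB, CTSS, CTSO, HGSNAT and SGSH among them, had no window at hand and were not read. The log2 changes of genes with the core had a median of -0.0141 (n = 11), against 0.0512 in those without it (n = 79). GAA was at -0.01 (adjusted p = 0.884), MCOLN1 at -0.04 (0.847) and ATP6V0D1 at 0.05 (0.574). No match says only that these letters are not in these windows.

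The shorter E-box was in 3 of the 13 genes called higher (NAPSA, NEU1 and CD63) and in 26.1% of the 92 genes. For NAPSA and NEU1 the stretches are printed with the E-box in capitals, to set beside those with the full core. The NAPSA stretch belongs to a RefSeq start and lies upstream of the deposited span of that gene (50358477 to 50365787), not directly before it.
NAPSA, chr19:50369348-50369405, minus strand: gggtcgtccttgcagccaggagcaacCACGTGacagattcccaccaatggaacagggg
NEU1, chr6:31862916-31862973, minus strand: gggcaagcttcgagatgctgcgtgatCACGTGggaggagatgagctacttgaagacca

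**Figure D4:**
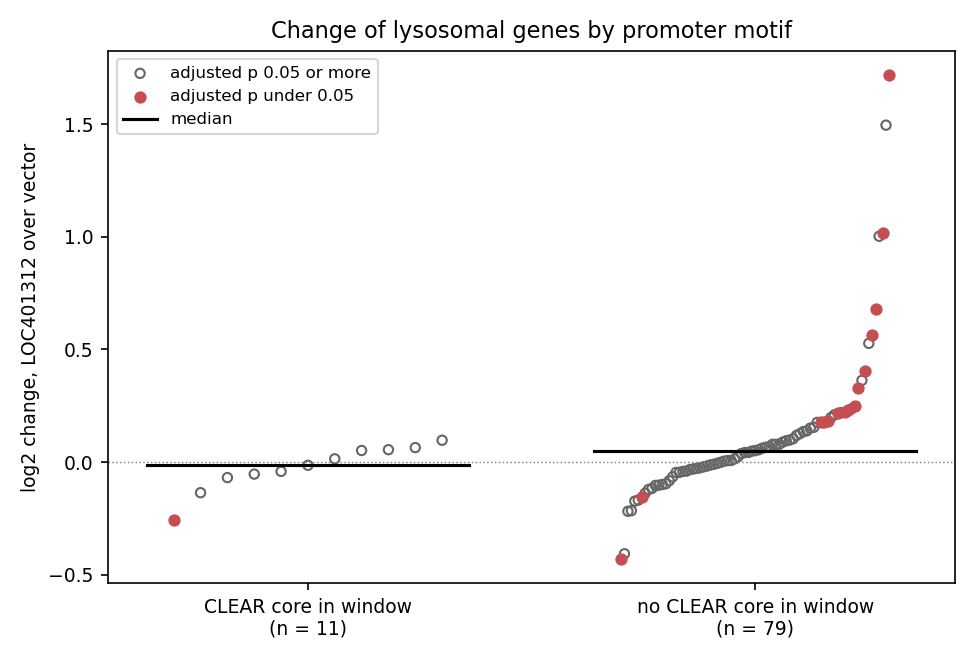
Log2 change of lysosomal genes with a RefSeq promoter window, split by the 8-letter core. Points are genes, filled where the adjusted p was under 0.05, and bars are medians. The 11 genes with the core lie around 0, with GALNS the filled point, and the filled points above 0 are all among the genes without it. A count of 0 in the 13 genes called higher is near the share among all lysosomal genes with a window, 11 of 92.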

How the data were processed

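Total RNA of 6 A549 libraries was sequenced. The gene table deposited by the authors gives raw counts and FPKM per library, per the file headers. Per the submitters' processing notes, reads were trimmed with cutadapt 1.9 and checked with FastQC on build GRCh38 (hg38). The sources used here do not give the aligner, counter, strand setting or FPKM length. Without a stated strand setting, overlapping genes may share reads.

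Libraries were grouped by title, 3 against 3. Counts were fitted with edgeR 4.0.16 (R 4.3.3; TMM, filterByExpr, quasi-likelihood test, Benjamini-Hochberg over 19620 features, threshold 0.05). Printed CPM are TMM-scaled, except the sums over markers, which are scaled to total counts. Alternatives were DESeq2 1.42.0, other scalings and filters, limma 3.58.1 on log2(FPKM + 0.1), for which features needed a mean of 1 FPKM, chromosome medians removed, a replicate block, and each library left out. Replicates differed beyond sampling noise (a chi-square over its degrees of freedom of 14 to 23.1). The biological coefficient of variation was 17.0%.

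Members and lists were chosen with earlier results of these data known. The named genes were all members past the threshold, the 2 of smallest p in a class where none passed, the 3 of highest FPKM in each class, and up to 3 called genes of each other list; further genes were named after their values were seen. A few genes under this rule are not reported here. The scripts were tested on simulated data. The limit on false calls was set after the first run, in which DESeq2 called more unchanged features than edgeR. Motifs were chosen after member values were seen, and 7 strings were looked at before 3 were kept.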

Additional observations from a re-analysis of the deposited data

How the results depend on the processing

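The direction of the median and the excess of rises over falls among lysosomal genes held under every alternative run. The numbers did not. For lysosomal genes called higher and lower (19 and 3), the alternatives gave 11 higher under the replicate block, 2 and 0 without LOC401312 replicates 2 and 3, 43 and 1 with limma on log2(FPKM + 0.1), 42 and 1 on log2(FPKM + 1), 1 lower with limma and no filter, and 9 and 1 at an adjusted p of 0.01. With a single library left out they ranged from 9 to 19 higher and from 1 to 4 lower. For all features (811 and 899), they gave 577 lower with no filter on low counts, 509 and 579 under the replicate block, 84 and 91 without LOC401312 replicates 2 and 3, 2148 and 378 with limma on log2(FPKM + 0.1), 2138 and 375 on log2(FPKM + 1), 180 lower with limma and no filter, 514 lower with chromosome medians removed, and 333 and 405 at an adjusted p of 0.01, and from 393 to 963 higher and from 439 to 1042 lower with a library left out. The median over lysosomal genes was 0.0644 above 5 FPKM, 0.0736 with total-count scaling, 0.168, 0.145 and 0.164 in the 3 limma fits named, 0.0620 with library medians also removed, 0.0388 with chromosome medians removed, and from 0.0370 to 0.0551 with a library left out. The FPKM fits carry the upward shift of that scale, and fits with a library left out have fewer samples; the cause of the other differences was not tested. ATG9A turned from -0.18 to 0.0456 with chromosome medians removed. Same-numbered libraries did not deviate together (correlations of -0.176, -0.0231 and -0.0637). Differently numbered libraries ran from -0.121 (vector 3, LOC401312 2) to 0.164 (vector 3, LOC401312 1). Deviations were centred within each group of 3, so these values cannot tell whether same-numbered libraries were handled as pairs. The 4 calls at a log2 change under 0.2 (CTSC, NEU1, GALC and CLTA) held in at most 1 of the 6 fits with a library left out. Some larger changes were no steadier. FUCA1 and GNPTAB also held in 1 of the 6, and NAPSA, GLB1 and SLC11A2 in 2.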
